A study of Mus musculus with 20 samples.

Results

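High-mitochondrial barcodes of the basolateral amygdala (BLA) are droplet barcodes in which the 13 mitochondrially encoded genes (mt- genes) took more than 25% of the unique molecular identifiers (UMIs) and in which at least 200 genes were detected. The rule found 16301 such members among 26253 barcodes of 9 libraries, each from 1 mouse (28722 barcodes in the 10 BLA libraries of the series). The members were chosen by their mitochondrial share and number of detected genes alone, so the mt- genes were left out of every level below, which is given per 10000 non-mitochondrial UMIs. The reference was the low set, the 5908 barcodes of the same 9 libraries with a mitochondrial share of at most 12.5%.

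All mice were wild-type C57BL/6 males, 13 weeks old by the labels. Of the 9 mice, 9901 and 9947 received BCD (the cyclodextrin vehicle of corticosterone, although one protocol text names plain water for controls) and a saline injection (BCD/Sal). The BCD/Ket group (BCD, then ketamine) was mice 9946, 9949 and 9986. Corticosterone (CORT) followed by saline was represented by mouse 9969 (CORT/Sal), and CORT followed by ketamine by mice 9967, 9968 and 9971 (CORT/Ket). As a model of chronic stress, CORT was drunk for 6 weeks in water holding 35 µg/ml, and ketamine (Ket), an antidepressant, at 10 mg/kg intraperitoneally 24 h before the brain was taken. The tissue was dissociated enzymatically and captured on the 10x Chromium platform, and the protocol text of the BLA samples names prefrontal cortex, so the dissection rests on the tissue label alone. The second CORT/Sal mouse, 9970, is outside the rule: 7 of its barcodes would have passed.

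Neuropil is the part of brain tissue between the cell bodies, made of dendrites, axons, synapses and the fine processes of glia. A set of mRNAs is carried into dendrites and translated near synapses, such as those of Camk2a, Map2 and Arc, together with the short noncoding RNA Bc1. Other transcripts, such as Malat1, stay in the nucleus. Mitochondria are abundant in dendrites and axon terminals. Transcripts of the first kind and of the second can therefore be counted side by side in barcodes with much and with little mitochondrial RNA.

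The sequence of Bc1 is shown because this RNA had the largest increase among the genes named by the rule for named genes. Bc1 is a neuronal RNA made by RNA polymerase III that is transported into dendrites and represses translation there. Its RefSeq start-site window (build GRCm38) matched NCBIM37 (mm9), the build named for these data, at 1 place, and the gene of 154 bases lay from there at chr7:152100375-152100528 on the plus strand, a noncoding gene. The capitals mark the adenine-rich stretch, bases 77 to 128, in which 45 of 52 bases are A and the longest run of A is 23 bases.
Bc1: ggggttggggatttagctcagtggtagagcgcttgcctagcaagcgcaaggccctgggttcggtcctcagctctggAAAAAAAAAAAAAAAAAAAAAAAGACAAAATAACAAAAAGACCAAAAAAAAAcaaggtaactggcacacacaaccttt
The first 50 bases occur at 2 places on chromosome 7, and related repeats exist elsewhere in the genome, so the assignment of reads to Bc1 is uncertain.

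The median member had a mitochondrial share of 50.6%, 1059 UMIs, 516 non-mitochondrial UMIs and 411 detected genes. Members made up 29.4% to 75.6% of the barcodes of a library (median 63.6%) and held 21.0% to 50% of its non-mitochondrial UMIs (median 39.7%). The libraries held between 811628 UMIs (mouse 9967) and 7281768 UMIs (mouse 9969). The median low-set barcode had 1448.5 non-mitochondrial UMIs. Among the mitochondrial UMIs, mt-Atp6 took a median of 21.9% in members and 22.4% in the low set, with ranges over libraries that overlap. Of the members, 92 (0.564%) had a barcode sequence that also occurs in another of the 9 libraries.

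The libraries of mice 9947 (BCD/Sal), 9946 (BCD/Ket) and 9967 (CORT/Ket) stood apart from the other 6. Barcodes under 200 genes made up 27.5%, 36.6% and 42.5% of them, against 0.498% to 3.24% in the other 6. Cluster 5 held 75.7%, 84.0% and 49.5% of their members, against at most 0.297% in the other 6, and in mouse 9967 a further 33.7% were in clusters 0 and 1. Cluster 5 was led by Lars2, Gm42418 and AY036118, of which the last pair overlaps ribosomal RNA genes. Low-set microglia-like barcodes numbered 0, 0 and 2 in them and 117 to 169 in each of the other 6. Some results are therefore also given for the 6 other libraries.

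**Figure D1:**
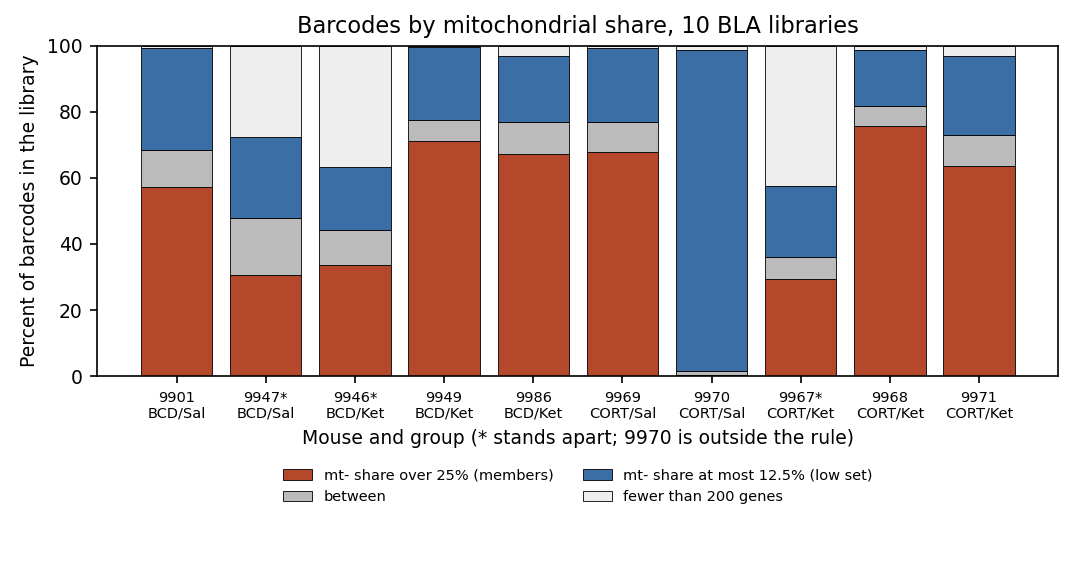
Percent of barcodes (y axis) by mitochondrial share in each of the 10 BLA libraries (x axis, mouse and group), in stacked bars. Members are 29.4% to 75.6% of the 9 libraries and 0.284% in mouse 9970, and barcodes under 200 genes are frequent in the 3 libraries that stood apart.

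The RNA of the members was rich in dendrite-localized neuronal mRNAs. The list of 24 dendrite-localized transcripts summed to 146 at the lowest, 305 at the median and 346 at the highest per 10000 in the members of the 9 libraries. In the low set it summed to 18.8 at the lowest, 38.8 at the median and 79.1 at the highest, so the groups did not overlap. All 24 genes were higher in members (edgeR quasi-likelihood test with the library as a block, Benjamini-Hochberg adjustment over 13593 genes), where 26.0% of all genes tested (3539) were higher and 34.7% (4716) were lower, 60.7% in either direction. The median log2 fold change of the list was 3.09, against -0.14 over all genes, and 3.88 in the 6 other libraries. With plain library sizes in place of TMM factors the median over all genes moved to -0.56, 2089 genes were higher and 7192 lower, and all 24 genes of the list were still higher (median 2.67).

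The dendritic RNAs ranged widely in size of change. Bc1 stood at 21.0 to 51.7 per 10000 in members (median 29.3) and at 0.415 to 6.85 in the low set (median 0.956), with a log2 fold change of 4.84 ± 0.43 (SE, 9 libraries, adjusted p = 1.57e-07). No library's members had as little Bc1 as the highest low set, and the 3 highest member levels were those of the 3 libraries that stood apart (41.9, 50.1 and 51.7). Ddn, which encodes the postsynaptic protein dendrin, stood at 0.576 to 16.5 in members (median 14.7) and 0.225 to 0.708 in the low set (median 0.566), a log2 fold change of 4.58 ± 0.66. Its ranges overlapped through the members of mouse 9947, the lowest.

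Kif5a, a motor protein of transport along microtubules, stood at 2.81 to 30.6 in members and 0.442 to 2.09 in the low set (log2 fold change 4.48 ± 0.57). Camk2a, the alpha subunit of the calcium-dependent kinase of the postsynaptic density, stood at 6.88 at the lowest, 48.5 at the median and 60.2 at the highest in members. In the low set it stood at 0.915, 3.96 and 6.52, and the log2 fold change was 3.71 ± 0.59. The levels of both genes did not overlap between members and low set. Map2, a microtubule protein of dendrites, rose by 2.87 ± 0.47 (log2), Nrgn, which binds calmodulin, by 2.62 ± 0.39, and Dlg4, the scaffold PSD-95, by 2.20 ± 0.38. The smallest increase in the list was that of Homer1, a postsynaptic scaffold (1.11 ± 0.29, higher in 7 of 9 libraries). Of the 24 genes, 12 had no overlap between members and low set, against 1.60% of all genes tested.

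Under the naming rule the 10 genes with the largest increase were Bc1, Lrrc17, Rasl10b, Kif5a, Gng13, Hpcal4, Nrsn1, Epop, Cnih2 and Neurl1b. Several of these genes had few UMIs in the low set. Lrrc17 had 1415 UMIs in all members and 79 in the low set, Epop 1193 and 118, and Neurl1b 1604 and 131. Such genes could pass the filters through the members alone, so the range of these 10 changes is not given and nothing is read from it. Bc1, Kif5a and Cnih2 are on the dendrite list. Gng13 is a subunit of heterotrimeric G proteins, Cnih2 an auxiliary subunit of AMPA-type glutamate receptors and Hpcal4 a neuronal calcium sensor. Hpcal4 stood at 4.72 to 20.4 per 10000 in members and 0.343 to 3.51 in the low set. All 10 genes were higher in 9 of 9 libraries, which the naming rule required.

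Other neuronal transcripts were also higher, by less. The presynaptic list (16 genes of vesicles and the active zone) rose in all 16 genes, beside 26.0% of all genes higher, with a median log2 fold change of 1.63 (all genes -0.14). It summed to 62.5 to 101 in members (median 76.4) and 10.3 to 98.6 in the low set (median 30.1), and was higher in 8 of 9 libraries. Cplx1, a regulator of vesicle fusion, rose by 3.27 ± 0.47 and Rims1, of the active zone, by 3.03 ± 0.47 (log2). Syp, a vesicle membrane protein, rose by 0.80 ± 0.29 and Sv2a by 0.63 ± 0.20. With plain library sizes 13 of the 16 were higher, beside 2089 of all 13593 genes.

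The pan-neuronal list (10 genes such as Celf4, Rbfox3 and Thy1 that mark neurons in general) rose in all 10 genes, beside the same 26.0% of all genes higher, with a median log2 fold change of 1.60. It summed to 35.5 to 45.6 in members (median 40.4), a narrow range, and 5.22 to 41.5 in the low set (median 12.1). The highest low sets were those of mice 9947 (41.5) and 9967 (35.9), where the members were lower than the low set (37.3 and 35.5).

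Per pan-neuronal UMI, members held more dendritic RNA and less presynaptic RNA than the low set. The dendrite list took 3.92 to 8.44 UMIs per pan-neuronal UMI in members (median 7.43) and 1.91 to 3.99 in the low set (median 2.87), and was higher in 9 of 9 libraries. The presynaptic list took a median of 1.72 in members and 2.28 in the low set, and was higher in 2 of 9 libraries. The ratios are given as a description, with no test.

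**Figure D2:**
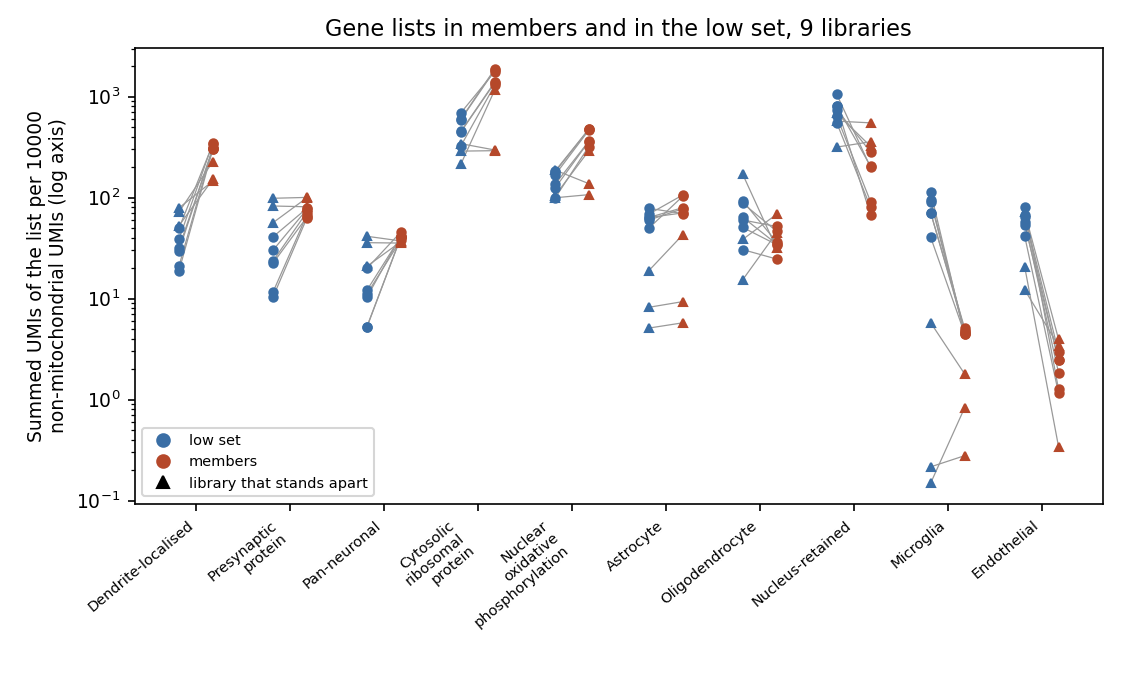
Summed level of 10 gene lists per 10000 non-mitochondrial UMIs (log y axis) in the low set (blue) and the members (red) of each of 9 libraries, joined by lines, with triangles for the 3 libraries that stood apart. The dendrite list lies above the low set in every library, endothelial markers lie below, and pan-neuronal levels of members fall between 35.5 and 45.6.

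Markers of neuron types were read against the 26.0% of all genes that were higher in members. Of the 10 excitatory neuron markers 8 were higher and none lower, with Slc17a7, the vesicular glutamate transporter of cortical-type neurons, at 4.20 to 9.18 in members and 0.546 to 6.26 in the low set (log2 fold change 1.82 ± 0.43). Tbr1, a transcription factor gene of excitatory neurons, rose by 2.22 ± 0.37. Of the 10 inhibitory neuron markers 6 were higher and none lower: Gad1 rose by 1.62 ± 0.46 and Gad2 by 1.98 ± 0.66, the enzymes of GABA synthesis, and Pvalb, a calcium-binding protein of fast-spiking interneurons, by 3.14 ± 0.47. Of the 10 striatal-like markers 4 were higher, among them Ppp1r1b (1.39 ± 0.33) and Rasd2 (2.89 ± 0.52). The median of that list moved from 0.41 to -0.01 with plain library sizes and to 1.24 in the 6 other libraries, where 6 of the 10 were higher. The inhibitory median moved from 1.56 to 2.51 in those 6 libraries, where 8 of the 10 were higher, beside 4227 of 13226 genes. The summed inhibitory and striatal-like lists were each higher in 6 of 9 libraries, and the 3 libraries that stood apart were the ones with lower sums in members.

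Of the nucleus-retained transcripts 4 of 7 were lower in members and none higher, beside 34.7% of all genes lower. The list (7 of its 10 genes are in the files) summed to 67.1 to 551 in members (median 204) and 317 to 1055 in the low set (median 685), and was lower in members of 8 of 9 libraries. Mouse 9947 was the exception, with 358 in members and 317 in the low set. Malat1, which took 67.4% of the UMIs of the list in members, stood at 57.6, 132 and 343 (lowest, median and highest) in members and at 169, 567 and 789 in the low set, a log2 fold change of -1.59 ± 0.47 (adjusted p = 0.00757). Neat1, the scaffold of nuclear paraspeckles, fell by 1.41 ± 0.33 (log2), Kcnq1ot1 by 0.75 ± 0.28 and Snhg11 by 0.73 ± 0.29. The other 3 genes did not pass the test, among them Meg3 (-0.44 ± 0.35).

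Members were also compared with low-set barcodes of clusters with neuronal leading genes. The reference was the 1159 low-set barcodes of clusters 3 (led by the neuronal noncoding RNAs Miat, Meg3 and Snhg11), 13 (inhibitory neuron-like) and 14 (striatal-like), a choice made after the clusters were seen. Its mix of neuron types differed between libraries. Mouse 9947 gave 74 barcodes, and its low set held 21 inhibitory-like and 49 striatal-like ones. Mouse 9901 gave 462, and its low set held 37 and 4. The dendrite, presynaptic and nucleus-retained lists had been kept out of the clustering, although genes that move with them had not. Of 9674 genes tested, 2488 (25.7%) were higher and 2426 (25.1%) lower in members. Of the 24 dendrite genes 21 were higher and none lower, with a median log2 fold change of 1.89 against -0.05 over all genes. Bc1 was higher by 4.20 ± 0.35, Kif5a by 3.40 ± 0.44, Ddn by 3.34 ± 0.49 and Camk2a by 2.33 ± 0.35 (log2). Among the 3 genes that did not pass were Itpka (0.16 ± 0.22) and Homer1 (-0.15 ± 0.17).

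Against the same neuronal barcodes the presynaptic list split. Of its 16 genes 8 were higher, among them Cplx1 (1.87 ± 0.35) and Syn1 (1.37 ± 0.24), and Syp and Sv2a were lower by 0.70 ± 0.21 and 0.61 ± 0.20 (log2), beside 25.7% of all genes higher and 25.1% lower. The pan-neuronal list had 4 of 10 genes higher, among them Nefl, the light neurofilament chain (1.78 ± 0.32), and Celf4 (0.81 ± 0.29), while Rbfox3 stood at -0.13 ± 0.21 and Thy1 at -0.23 ± 0.18. Of the 7 nucleus-retained genes 6 were lower, including Snhg11 (-2.55 ± 0.51), Miat (-2.25 ± 0.48), Meg3 (-2.21 ± 0.60), Kcnq1ot1 (-2.01 ± 0.42) and Malat1 (-1.37 ± 0.54), and Neat1, which is little expressed in neurons, was higher (2.22 ± 0.44). Cluster 3 was taken into the reference for leading genes that include Miat, Meg3 and Snhg11, so the values of these 3 genes are partly fixed by the choice of reference. The choice of neuronal clusters fixes the outcome for glial markers, so no count of them is given. Of the 10 excitatory markers 3 were higher and none lower (median log2 fold change -0.10), a share near that of all genes higher, of the 10 inhibitory markers 1 was higher and 2 lower (-0.41), and of 9 striatal-like markers tested 1 was higher and 4 lower (-0.95), where clusters 13 and 14 had been named from markers of the last 2 lists.

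**Figure D3:**
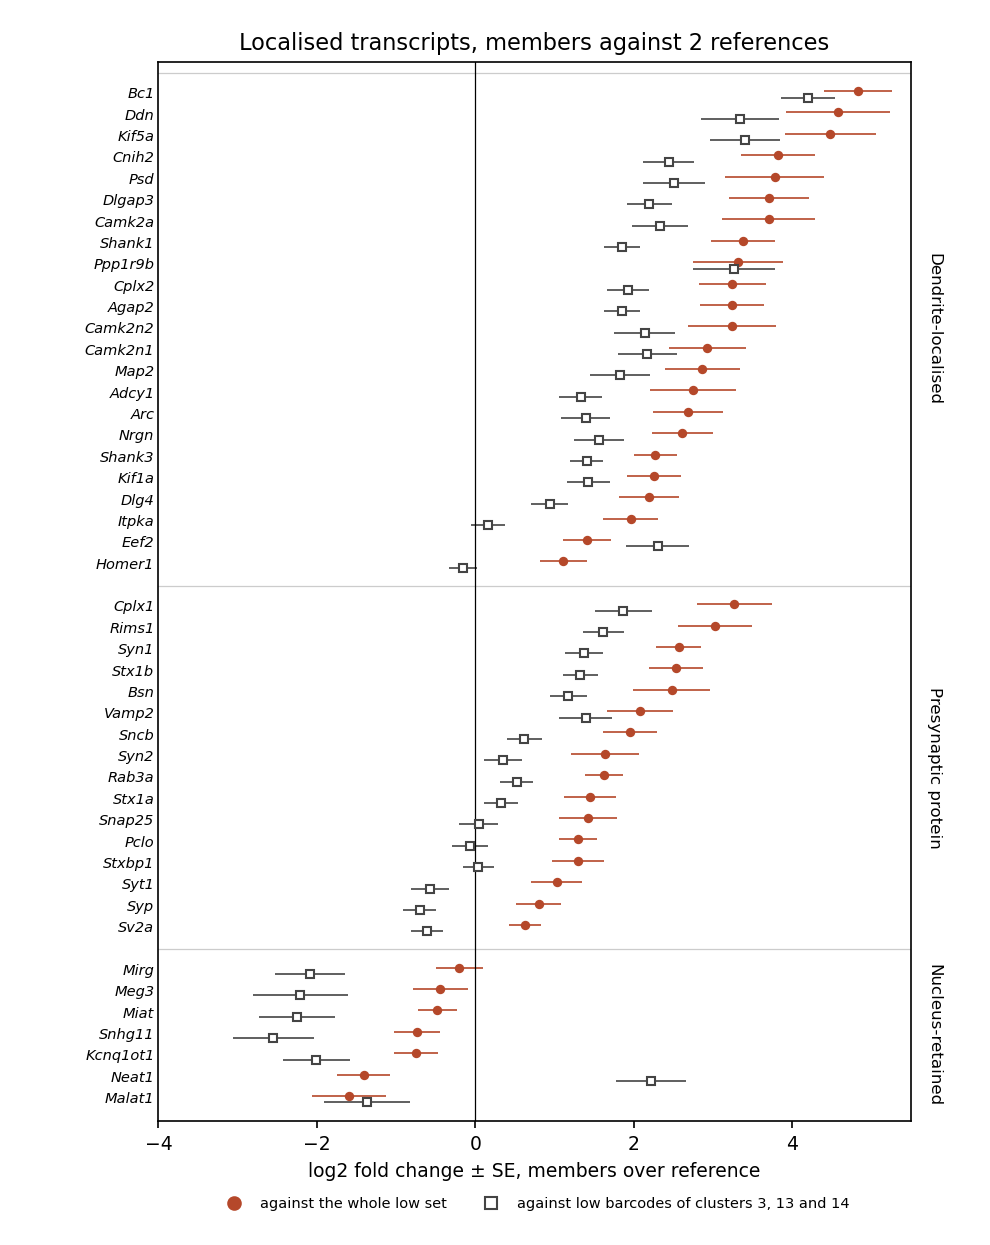
Log2 fold change with its standard error (x axis) of genes of the dendrite, presynaptic and nucleus-retained lists, in members against the whole low set (red points) and against low-set barcodes of clusters 3, 13 and 14 (open squares). The dendrite list lies right of 0 against the whole low set and for 22 of the 23 genes drawn against the neuronal clusters.

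Components of the protein synthesis machinery and of the respiratory chain were higher in members. The cytosolic ribosomal protein list summed to 292 to 1880 in members (median 1374) and 215 to 693 in the low set (median 448). Of 81 genes tested 79 were higher and 1 lower, beside 26.0% of all genes higher, with a median log2 fold change of 1.66. Mice 9946 and 9947 had the lowest member levels (297 and 292), and the members of mouse 9946 lay below their low set (ratio 0.866). Rplp1, of the large subunit, rose by 2.43 ± 0.37 (log2).

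The nuclear genes of oxidative phosphorylation, whose proteins join the mitochondrially encoded ones, summed to 107 to 475 in members (median 359) and 98.4 to 188 in the low set (median 135). The members were higher in 8 of 9 libraries, and those of mouse 9947 were lower than their low set (ratio 0.733). Of 76 genes tested 60 were higher and none lower, beside 26.0% of all genes higher, with a median log2 fold change of 1.03. With plain library sizes 45 were higher and 2 lower, beside 2089 of all 13593 genes higher. Cox8a, a subunit of cytochrome c oxidase, rose by 3.05 ± 0.43 and took 13.1% of the UMIs of the list in members.

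Astrocyte transcripts were read against the 26.0% of all genes higher and 34.7% lower, and nothing is read from the counts. Of the 10 astrocyte markers 3 were higher, namely Slc1a2, the glutamate transporter GLT-1 (1.41 ± 0.28), Aldoc (0.90 ± 0.26) and Mlc1 (0.72 ± 0.18), and 4 were lower, namely Gjb6, Ntsr2, Gja1 and Fgfr3 (log2 fold changes from -0.80 to -0.66). Gfap, the astrocyte filament protein on the list of astrocyte-process transcripts, rose by 1.49 ± 0.19, and that list had 3 of 12 genes higher and 3 lower. Slc1a2 stood at 3.93, 44.7 and 70.6 (lowest, median and highest) in members and 2.77, 23.6 and 27.5 in the low set, higher in 9 of 9 libraries. With plain library sizes 1 astrocyte marker was higher and 5 lower.

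Of the 10 oligodendrocyte markers Mbp, the myelin basic protein whose mRNA is carried into the myelin sheath (1.92 ± 0.37), and Mobp (1.2 ± 0.33) were higher and 5 were lower, among them Cnp (-1.15 ± 0.33) and Ermn (-1.54 ± 0.35), and nothing is read from these counts beside the 26.0% of all genes higher and 34.7% lower. Mbp stood at 5.60 to 20.8 in members (median 13.6) and 1.73 to 14.3 in the low set (median 4.11), higher in 8 of 9 libraries. The myelin-localized list had 3 of 10 genes higher and 3 lower, also near those shares. On it Bcas1, Plekhb1 and Trp53inp2 rose by 2.06 ± 0.36, 1.32 ± 0.29 and 1.64 ± 0.19, and Ndrg1 fell by 1.80 ± 0.25. Against a low set limited to a mitochondrial share of at most 5%, the glial genes named as higher here stayed higher (Mbp 3.46, Mobp 3.11 and Slc1a2 1.90 on the log2 scale), while the 4 lower astrocyte markers no longer passed the test and Gjb6 (0.11), Cnp (0.23) and Ermn (0.59) turned positive without passing it.

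Microglial, vascular and blood markers were lower in the members. All 10 endothelial markers were lower with no overlap between members and low set, where 2.29% of all genes tested were lower with no overlap. The list summed to 0.343 to 3.98 per 10000 in members (median 2.45) and 12.2 to 80.1 in the low set (median 57.4). Cldn5, a tight junction protein, fell by 4.47 ± 0.43, Flt1, a receptor for vascular endothelial growth factor, by 4.55 ± 0.37 and Pecam1 by 4.25 ± 0.24 (log2).

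All 10 microglia markers were lower, with a median log2 fold change of -3.20, beside 34.7% of all genes lower (median over all genes -0.14). The list summed to 4.44 to 5.13 in members and 40.4 to 113 in the low set of the 6 libraries that held microglia-like barcodes in number, and in mice 9946 and 9947 members were higher than a low set near 0. Cx3cr1, the fractalkine receptor of microglia, fell by 3.94 ± 0.27. Of the oligodendrocyte precursor markers 8 of 8 were lower. The pericyte or smooth muscle list summed to 0.583 to 2.40 in members (median 0.915) and 1.35 to 24.3 in the low set (median 13.7). The red blood cell list (hemoglobin genes and Alas2) summed to 0 to 5.36 in members (median 0.147) and 0 to 117 in the low set (median 2.53). Genes of these 2 lists could pass the filter on low counts through the low set alone, so no count of them is given. Of the 12 markers of other immune cells 10 were tested, and S100a8, Cd3e and Ms4a7 were at 0 in members. That list summed to 0 to 0.194 in members (median 0.0196) and 0.0240 to 6.01 in the low set (median 0.948). Its genes could pass the filter on low counts through the low set alone, so no count of lower ones is given. The 10 largest decreases under the naming rule were those of Higd1b, Hspb1, Uaca, Ly6a, Nes, She, Sox17, Tbx3, Ctla2a and Ly6c1. Several of these genes were near 0 in members. She had 13 UMIs in all members and 595 in the low set, Tbx3 14 and 634, and Sox17 24 and 1068. Such genes could pass the filters through the low set alone, so the sizes of these 10 changes are not given and nothing is read from them. Higd1b is a pericyte gene, Ly6a, Ly6c1 and Sox17 mark endothelial cells, and Tbx3 and Nes are also expressed along vessels.

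Genes induced by cell dissociation were mostly lower. Of 18 immediate early and dissociation genes 13 were lower and 2 were higher, beside 34.7% of all genes lower and 26.0% higher. Atf3, a stress-induced transcription factor, fell by 5.63 ± 0.29, Klf2 by 4.84 ± 0.37 and Fos by 2.73 ± 0.48 (log2). The higher ones were Egr3 (1.39 ± 0.22) and Jund (0.51 ± 0.19). The list summed to 5.32 to 10.3 in members (median 6.89) and 9.43 to 60.9 in the low set (median 17.9), lower in 9 of 9 libraries. Klf2 and Atf3 are also among the leading genes of the low-set endothelial-like cluster, and how far cell types and activation each contribute was not tested. Of 13 glucocorticoid-induced genes tested 4 were lower, including Sgk1 (-1.74 ± 0.22), and Fkbp5 (0.54 ± 0.22) and Mt2 were higher, neither of them with plain library sizes. Nothing is read from the counts of glucocorticoid-induced genes beside the 26.0% of all genes higher and 34.7% lower.

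The levels changed along the mitochondrial share, also within the members. Over bins of the share from 0 to 5%, 5 to 12.5%, 12.5 to 25%, 25 to 37.5%, 37.5 to 50% and 50 to 75%, the median of the dendrite list over libraries was 27.6, 40.3, 59.8, 146, 302 and 348 per 10000. The nucleus-retained list stood at 782 in the first bin and 96.3 in the last of these, and the ribosomal list at 441 and 1723. Endothelial markers went from 45.0 to 0.821. The bin above 75% held 108 barcodes with a median over libraries only from 1 library and is left out. Barcodes just below the limit (22.5 to 25%, 349 barcodes) summed to 99.1 for the dendrite list and 689 for the nucleus-retained list, and those just above it (25 to 27.5%, 330 barcodes) to 113 and 630. These values are descriptive, since the mitochondrial share orders the bins, and the median non-mitochondrial UMIs per barcode went from 1267.5 in the first bin to 445 in the 50 to 75% bin.

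**Figure D4:**
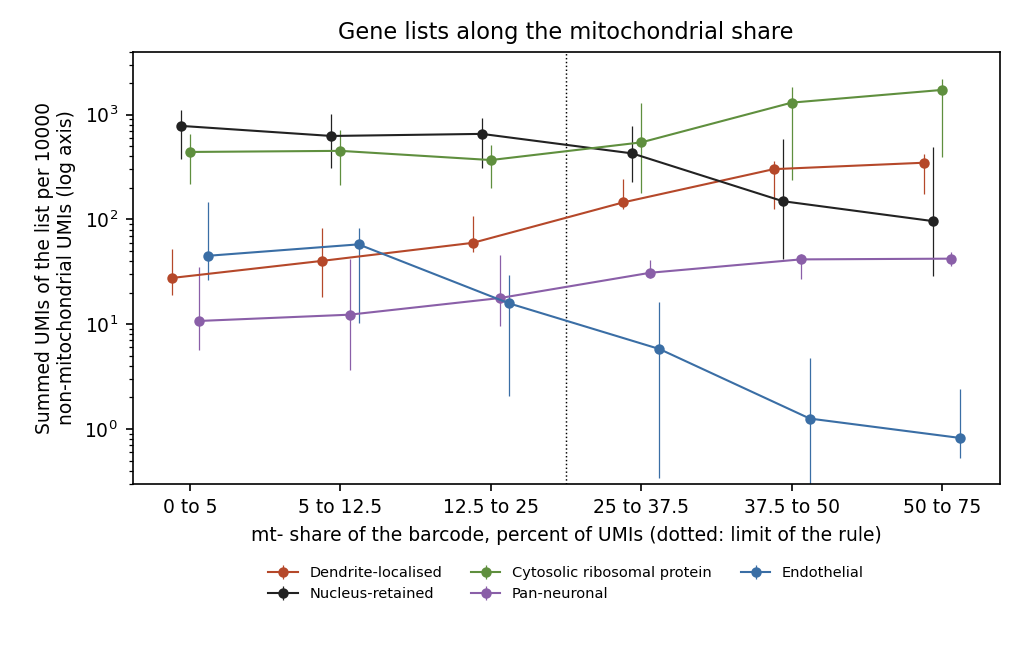
Median (points) and lowest to highest value over 9 libraries (bars) of 5 gene lists per 10000 non-mitochondrial UMIs (log y axis, cut at 0.3) in bins of the mitochondrial share (x axis, percent of UMIs). The dendrite median climbs from 27.6 to 348 and the nucleus-retained median declines from 782 to 96.3.

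Members and low set differed in depth, so each barcode was thinned to 200 non-mitochondrial UMIs, a number that all members and low-set barcodes reached. A Bc1 UMI was then found in 37.3% of members (65.4% before thinning, median depth 516) and in 2.71% of the low set (15.7% before thinning, median depth 1448.5). Low-set endothelial-like barcodes, which should lack this neuronal RNA, gave 2.02%, microglia-like ones 1.40%, and the neuronal clusters 3, 13 and 14 gave 4.14%. The share in the whole low set ranged from 0.966% to 9.60% between libraries (median 2.27%). Endothelial-like members gave 28.4% (n = 74 barcodes), astrocyte-like members 24.3% and oligodendrocyte-like members 7.49%. After thinning, Camk2a was found in 56.5% of members and 5.81% of the low set, Malat1 in 53.8% and 97.7%, Mbp in 19.7% and 5.91%, and Cldn5 in 0.282% and 12.5%. Shares of barcodes carry counting error only (exact binomial interval of 95%, 36.5% to 38.0% for Bc1 in members).

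Members and low set were clustered together without the localized, ribosomal, oxidative phosphorylation and response genes. Of the members, 81.0% (13209) fell into clusters 0 and 1, which held 1.12% of the low set and stayed unnamed because none of the class markers were among their 50 leading genes. Their leading genes were Cnih2, Map2, Kif5a and Bc1 in cluster 0 and Ddn, Rims4 and Dact3 in cluster 1, which describes the clusters and is no test. Their members had 379 and 809 median non-mitochondrial UMIs. Markers of a cell class thus give these clusters no name, and the term neuropil RNA is used here for the localized lists alone.

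Named clusters held the smaller part of the members. Cluster 8, astrocyte-like and led by Tst, Gfap and Slc25a18, had 431 members among 478 barcodes, whereas the other astrocyte-like cluster, 2, held 153 members and 1322 low-set barcodes. The oligodendrocyte-like cluster held 267 members and 380 low-set barcodes, the endothelial-like cluster 74 and 1090, and the microglia-like cluster 25 and 859. Cluster 10, striatal-like and led by Lrrc10b, Scn4b and Adora2a, held 413 members and 3 low-set barcodes. Members of striatal-like clusters were 0.474% (mouse 9946) to 7.55% (mouse 9969) of all members of a library, a class marked by genes of striatal projection neurons. Cluster 12, unnamed and led by the macrophage genes Mrc1, Wfdc17 and Pf4, held 180 members and 51 low-set barcodes.

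Within a cluster of one cell type, members carried more dendritic RNA than low-set barcodes did. Pooled over libraries, the dendrite list stood at 150 per 10000 in endothelial-like members and 13.9 in endothelial-like low-set barcodes, at 193 and 15.8 in microglia-like ones, at 192 and 21.3 in astrocyte-like cluster 8, at 61.6 and 14.7 in oligodendrocyte-like ones and at 289 and 15.4 in cluster 12. In cluster 3 the values were close, 92.9 and 86.1. Per pan-neuronal UMI the dendrite list took 7.71 UMIs in endothelial-like members, 7.70 in microglia-like members, 8.13 in members of cluster 8 and 8.24 in members of cluster 12. Members of clusters 0 and 1 had 7.96 and 7.91, members of cluster 3 had 2.91 and its low-set barcodes 2.29. The few neuronal UMIs of low-set barcodes of the same non-neuronal clusters gave ratios of 5.78 in endothelial-like, 8.20 in microglia-like, 11.6 in cluster 8 and 7.69 in cluster 12. In oligodendrocyte precursor-like barcodes the ratio was 5.86 in members and 2.90 in the low set, and in pericyte or smooth muscle-like ones 9.48 and 3.55. It was 6.70 and 6.19 in oligodendrocyte-like and 7.47 and 5.5 in ependymal or choroid-like barcodes. In astrocyte-like cluster 2 it was lower in members (7.33 and 10.3), as in cluster 15 (13.1 and 16.5). The order of members and low set thus differed between clusters.

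**Figure D5:**
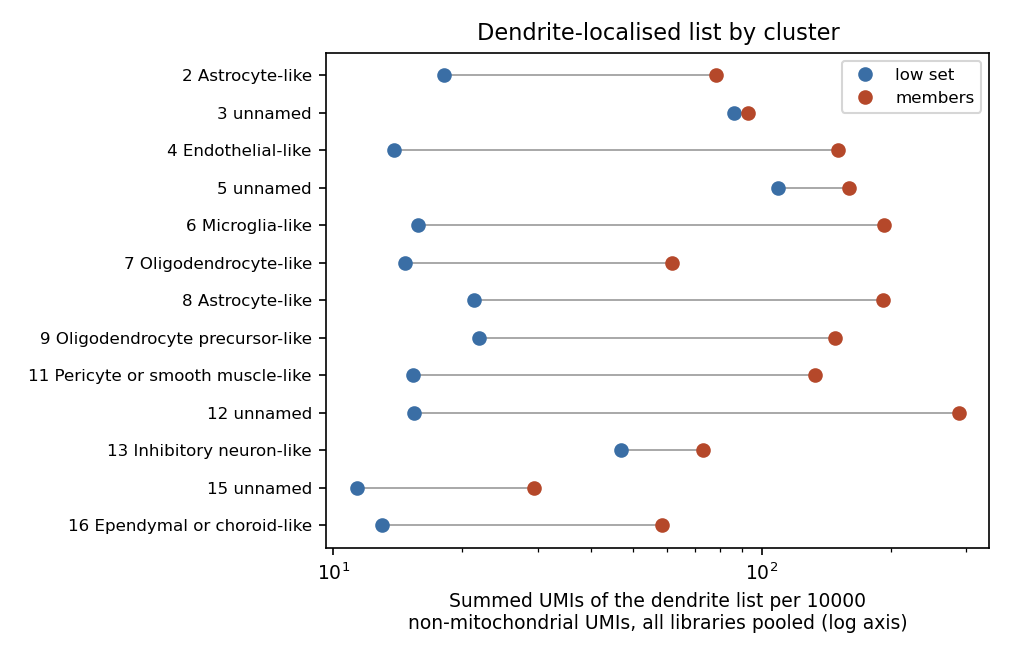
Dendrite list per 10000 non-mitochondrial UMIs, pooled over libraries (log x axis), in members (red) and low-set barcodes (blue) of each cluster that held enough of both (y axis, cluster number and name). Members of the glial, vascular, immune and ependymal clusters and of clusters 12 and 15 lie at 29.3 to 289 where low-set barcodes have 11.3 to 21.9, and the 2 values of cluster 3 are close.

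Libraries with at least 10 barcodes of each kind were tested within a class. In astrocyte-like barcodes (7 libraries), 23.4% of the 4111 genes tested were higher in members and 23.5% were lower (47.0% in either direction). Cluster 8 holds most of these members and cluster 2 most of the low set. In oligodendrocyte-like barcodes (8 libraries), 17.2% of 1824 genes were higher and 18% were lower (35.2% in either direction). In endothelial-like barcodes (3 libraries), 3.93% of 3789 genes were higher and 2.06% were lower (5.99% in either direction). Dendrite genes were rare in the low-set barcodes of these classes (after thinning, a Camk2a UMI was found in 1.39% of astrocyte-like, 1.58% of oligodendrocyte-like and 1.19% of endothelial-like ones) and could pass the filter on low counts through the members alone, so no count of them is given. The ribosomal list was higher in 79 of 80 genes in astrocyte-like members, in 8 of 78 (and lower in 8) in oligodendrocyte-like members and in 0 of 81 in endothelial-like members, where 8 genes had an unadjusted p under 0.05.

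No marker of the cells' own type passed the test as higher in members of these 3 classes. In endothelial-like members 3 of 10 endothelial markers were lower, beside 2.06% of all genes tested. The log2 fold changes of all 10 ran from -1.86 to -0.65 (median -1.06). Immediate early and dissociation genes could pass the filter through the low set alone in this class, so no count of them is given. In astrocyte-like members 6 of 10 astrocyte markers were lower and none higher, beside 23.5% of all genes lower, and in oligodendrocyte-like members 4 of 10 oligodendrocyte markers were lower, beside 18%. The counts of all genes called rest on few libraries. Among endothelial-like barcodes, leaving out mouse 9968 or 9971 left 53 or 49 higher genes of 149, and leaving out mouse 9968, 9971 or 9986 left 20, 28 or 44 lower genes of 78. Leaving out mouse 9969 left 186 higher and 168 lower genes among oligodendrocyte-like barcodes (313 and 329 with it). Leaving out mouse 9949 left 544 lower genes of 967 among astrocyte-like barcodes.

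The treatment comparisons asked whether the RNA of the members differed after ketamine in mice without corticosterone (BCD/Ket against BCD/Sal) or after corticosterone in mice given ketamine (CORT/Ket against BCD/Ket). No gene of 12584 passed the threshold in either comparison (0% called), with 62 and 66 genes at an unadjusted p under 0.05 in edgeR and 23 and 31 in DESeq2, which also called 0. The difference of the member-minus-low difference between the same groups was passed by 0 of 14300 genes in edgeR and in DESeq2, with 608 and 176 genes at an unadjusted p under 0.05 in edgeR and 395 and 90 in DESeq2. A p that misses the threshold does not show that the groups were alike. No test was made for CORT/Sal, which had 1 library under the rule.

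Among the 3 groups with more than 1 library, the levels of the dendrite and ribosomal lists overlapped. The dendrite list in members stood at 146 and 339 for BCD/Sal, at 152, 301 and 307 for BCD/Ket and at 227, 313 and 346 in CORT/Ket, and the 1 library of CORT/Sal at 305. The lowest value of each group with more than 1 library was that of a library that stood apart. The ribosomal list in members stood at 292 and 1299 for BCD/Sal, 297, 1374 and 1772 for BCD/Ket and 1164, 1398 and 1830 in CORT/Ket, and at 1880 in the CORT/Sal library. The median log2 fold change of the dendrite genes was 0.34 for BCD/Ket against BCD/Sal (all genes 0.05) and 0.19 for CORT/Ket against BCD/Ket (all genes -0.03), with 0 of 24 genes called.

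The share of members varied widely between libraries of 1 group. Members made up 57.4% ± 20.7 of barcodes after ketamine (BCD/Ket, SD, n = 3) and 43.8% ± 18.9 after saline (BCD/Sal, SD, n = 2). They made up 56.2% ± 24.0 in CORT/Ket (SD, n = 3). The median mitochondrial share of members was 44.6% ± 0.85 for the 2 BCD/Sal libraries (SD), 50% ± 2.2 for the 3 of BCD/Ket and 53.6% ± 1.5 for the 3 of CORT/Ket. Both measures were used by the rule that chose the members and are given with no test. Over 11 shares of members (those in each named cell class, and those in all unnamed clusters together), the tests gave adjusted exact permutation p-values of 1 at the smallest in both comparisons, where 3 against 2 libraries cannot go below 0.2 and 3 against 3 not below 0.1 before adjustment (two-sided).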

How the data were processed

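The files hold raw UMI counts per gene and barcode for 31053 genes, as deposited. Per the labels and the file headers, the authors made these counts with Cell Ranger (3.0.2) on mm9 and analyzed them with Seurat (3.1.1). The version of the gene annotation is not given in the sources used here. The study filtered cells on mitochondrial transcripts, so most barcodes described here would be removed by such a filter.

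The members and the gene lists were chosen with earlier results of these data known. Members had more than 25% mt- UMIs, the low set at most 12.5%, and both at least 200 detected genes. The 13 mt- genes were then left out, and counts were summed per library and set. Each mouse gave 1 library, and the mouse numbers of the labels tie members and low set of the same library, which was kept as a block because both come from the same animal. Sums were tested with edgeR (4.0.16) quasi-likelihood tests after TMM scaling and edgeR's filter on low counts, with Benjamini-Hochberg adjustment over all genes tested and a threshold of 0.05. Treatments were tested in 1 fit over the 4 groups. DESeq2 (1.42.0), RLE size factors, no filter, no block, thinned counts, other limits on genes and mitochondrial share, and leaving out each library were the alternatives. Plain library sizes, the 6 other libraries and the neuronal reference were chosen after seeing the data.

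Genes named beyond the lists were the 10 with the largest change in each direction among those past the threshold with an average of at least 20 CPM and the same sign in every library. Barcodes were clustered with scanpy (1.11.5) on 2000 variable genes, 30 components and 20 neighbors at a Leiden resolution of 0.8, and a cluster was named where at least 3 markers of a class were among its 50 leading genes. No doublet caller was run, and leaving out the deepest 5% of barcodes stood in its place. Exact permutation tests were two-sided. Intervals are exact binomial (Clopper-Pearson) of 95% and cover counting error only. The tests were tried on simulated data. Python (3.11.15) and R (4.3.3) were used. Single values of a few list genes are not reported here, and the counts and sums of their lists include them.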

Additional observations from a re-analysis of the deposited data

Results flagged for a closer look

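Mouse 9970 (CORT/Sal), left out of the comparisons by the rule on members, had 7 barcodes over the mitochondrial limit and 2397 in the low set, and its median mitochondrial share was 3.22%. Its low-set barcodes carried more of 3 gene lists than the low set of any of the 9 other libraries did. The dendrite list summed to 169.7 per 10000 non-mitochondrial UMIs (95% interval 168.3 to 171.0, counting error only), against 79.1 in the highest of the others. The ribosomal list summed to 1037 per 10000 (highest of the others 693), and the nuclear oxidative phosphorylation list to 352.6 per 10000 (highest of the others 188.0). These are values of 1 library, with no test. Groups of at most 3 libraries are too small for a test of outlying samples.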

How the results depend on the processing

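With the library as a block, 3539 genes were higher and 4716 lower in members; with no replicate block 2405 were higher and 2903 lower. Thinning each barcode to 200 UMIs gave 2094 and 2300, plain library sizes 2089 and 7192, and leaving out 1 library 2994 to 3729 and 4083 to 5120. Against the neuronal low-set clusters, 3798 genes were higher without the 3 libraries that stood apart (2488 with them). With no filter on low counts, the difference of the member-minus-low difference had 5 genes higher and 2 lower for BCD/Ket against BCD/Sal and 1 higher for CORT/Ket against BCD/Ket, where leaving out 1 library gave 0 to 1.

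Within classes, astrocyte-like barcodes gave 463 higher and 384 lower genes without the block, 1741 and 1791 at resolution 1.2, 450 lower with DESeq2 and 1650 lower with no filter, and 663 to 1197 higher and 544 to 1135 lower when leaving out 1 library. Oligodendrocyte-like barcodes gave 140 and 133 without the block, 191 and 732 with no filter, and 186 to 349 and 168 to 483 when leaving out 1 library. Endothelial-like barcodes gave 83 higher and 132 lower with no filter, 20 lower with DESeq2, 120 lower at resolution 0.4, and 49 to 141 and 20 to 44 when leaving out 1 library.

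With a low set of at most 5% mitochondrial share, the low-set levels per 10000 were 29.7 for astrocyte, 12.9 for oligodendrocyte, 134 for microglia, 7.02 for myelin-localized and 11 for glucocorticoid-induced genes, and Gjb6 (0.11), Cnp (0.23), Ermn (0.59) and Fkbp5 (-0.0914) changed sign. Members above 50% had 0.817 per 10000 endothelial UMIs, and the fibroblast list of the low set was 0.953 without the 3 libraries. As means over the 9 libraries, astrocyte-like members were 7.40% at resolution 1.2 and 5.95% with the lists kept in the clustering. Inhibitory-like members were 2.05% with the lists kept, and unnamed members 83.3% at resolution 1.2. In the main clustering, pooled over libraries, the astrocyte-like clusters held 3.58% of members, the inhibitory-like cluster 0.215% and all named clusters together 9.44%. The causes were not tested. Of 1948 values for single genes under the alternatives, 1838 kept direction and side of the threshold. Of 291 other values, 257 stayed within a fixed factor of the main count or, for levels and shares, within their spread over libraries. The 291 do not include the settings that leave out 1 library. The 3 libraries that stood apart and the 1 CORT/Sal library limit the treatment comparisons.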
